A study of Mus musculus with 4 samples.

Results

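The antigen receptor loci are the stretches of the genome that hold the gene segments of the antibody and T cell receptor chains, and their folding was measured here by Hi-C in mouse embryonic stem cells (mESCs), a cell type that does not recombine them. Hi-C joins DNA ends that lie close together in the nucleus and counts the joined read pairs between bins of the genome, here of 40 kb. The 4 large loci were taken from the gene annotation, as the span from the outermost to the outermost gene with an immunoglobulin or T cell receptor segment biotype at Igh, Igk, Tra/Trd and Trb. Every 40 kb bin touching such a span was a member, which gave 212 of the 66382 bins of the genome, or of its 61816 autosomal bins. Igh, the heavy chain locus, held 69 bins, and Igk, the kappa light chain locus, held 80. Tra/Trd, the joint locus of the alpha and delta chains, held 46 bins, and Trb, the beta chain locus, held 17. Smaller groups of receptor genes, among them the 14 genes of the gamma chain on chromosome 13 and the 3 Iglv genes on chromosome 16, were not members.

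Wild-type (WT) male mESCs were compared with male mESCs labelled as knockout (KO) for Firre, an X-linked long non-coding RNA gene with many binding sites of the architectural protein CTCF. Each group had 2 libraries, described as technical duplicates and pooled into 1 matrix per group, so no replicate spread exists, no test was run, and p-values are not given. By the methods, the WT cells (the N3 line) grew in 2i medium with no feeder named, and the Firre KO cells in 2i on irradiated feeder fibroblasts depleted before use, while a sentence of the study's results has both on feeders. Strain was not given, and it was not said whether the Firre KO cells derive from N3, so genotype, culture and cell line cannot be told apart.

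Each antigen receptor chain is assembled in lymphocytes by V(D)J recombination, in which the RAG recombinase joins a variable (V) segment, in some chains a diversity (D) segment, and a joining (J) segment upstream of a constant (C) gene. RAG cuts at recombination signal sequences, a heptamer and a nonamer separated by a short or a long spacer, and joins a short-spacer signal to a long-spacer signal. In developing lymphocytes the large loci contract, so that distant V segments meet the D and J segments, and CTCF takes part in this folding. Embryonic stem cells do not rearrange these loci, which are silent there.

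Igh lay at chr12:114509484-117238672 (mm9) with 142 annotated receptor genes, from the constant gene Gm900 to Ighv1-85. Of these, 112 were V, 21 D, 4 J and 5 C segments, and the D, J and C segments filled 8 bins at the low-coordinate end. Igk lay at chr6:67505630-70676751 with 105 genes from Igkv2-137 to Igkc, 99 of them V and 5 J, and its J segments and Igkc shared 1 bin at the high-coordinate end. Tra/Trd lay at chr14:53047603-54842772 with 172 genes from Trav1 to Trac, namely 108 V, 2 D (Trdd1 and Trdd2), 61 J and 1 C, the last 3 kinds in 4 bins at the high end. Trb lay at chr6:40841295-41508370 with 41 genes from Trbv1 to Trbv31, namely 23 V, 2 D, 14 J and 2 C (Trbc1 and Trbc2), with D, J and C in 1 bin at the high end. In all, 460 receptor genes were counted. Genes listed as protein-coding also lay inside the spans, 8 in Igh, 6 in Igk, 9 in Tra/Trd and 14 in Trb. Some of these are receptor segments under another biotype, namely Gm900 (listed under both), Ighg2c and Ighv1-73 in Igh and 3 genes with Igkv names in Igk. Those of Igh also include Adam6a and Adam6b, metalloprotease family genes near the D segments, and those of Tra/Trd the odorant receptor genes Olfr1507, Olfr1508 and Olfr1509 beside Trav1. In Trb, trypsinogen genes such as Prss1, Prss2, Try4 and Try5 separate most V segments from Trbd1.

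The recombination signals are shown because they are what makes these spans one kind of locus. A signal was searched on both strands as the heptamer CACAGTG followed, after 12 or 23 bases, by a nonamer matching ACAAAAACC in at least 7 of 9 positions. The sequences below are read 5′ to 3′ from the heptamer on the strand named, with heptamer and nonamer in capitals and the spacer in lower case.
Gm16700, Igh V, chr12:115117268-115117306, minus: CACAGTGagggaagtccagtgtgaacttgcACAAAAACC
Gm16782, Igh D, chr12:114689034-114689061, minus: CACAGTGatatatccagcaACAAAAACC
Igkv2-137, Igk V, chr6:67506211-67506238, plus: CACAGTGatacagccctgaACAAAAACC
Igkv3-1, Igk V, chr6:70654172-70654199, plus: CACAGTGctccagggctgaACAAAAACC
Igkj1, Igk J, chr6:70672517-70672555, minus: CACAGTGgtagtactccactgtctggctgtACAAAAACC
Trav16d-dv11, Tra/Trd V, chr14:53667497-53667535, plus: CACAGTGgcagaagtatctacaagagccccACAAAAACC
Trdd1, Tra/Trd D, chr14:54733115-54733142, minus: CACAGTGaaacacagccgtACAAAAACA
Trdd2, Tra/Trd D, chr14:54741917-54741955, plus: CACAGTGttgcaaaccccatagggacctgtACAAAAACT
Gm16665, Tra/Trd J, chr14:54804346-54804373, minus: CACAGTGatatcatgttctACAAAAACC
Trbv1, Trb V, chr6:40841885-40841923, plus: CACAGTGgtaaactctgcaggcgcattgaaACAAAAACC

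Igkv2-137 and Igkv3-1 lie at opposite ends of the Igk V array, and both carry the spacer of 12 bases against the spacer of 23 bases at Igkj1. In Igk, 79 of 99 V segments had a signal by this search directly at their end, all 79 with the spacer of 12, and 2 of 5 J segments had one with the spacer of 23. In Igh, 19 of 112 V segments had a signal, all with the spacer of 23, and 7 of 21 D segments had one with the spacer of 12 downstream. In Tra/Trd, 46 of 108 V segments had the spacer of 23, 3 of these also read as a signal with the spacer of 12, and 11 of 61 J segments had the spacer of 12. The 3 were Trav16d-dv11, Gm16837 and Gm13896, whose signals were identical in sequence although they lie far apart in the locus. A perfect heptamer was required, so a segment without a match has no signal of these letters in this window and nothing more is known from it. A signal was found in 58.96% of the 212 member bins and in 5.65% of the 59863 autosomal bins with sequence. By locus it was found in 67 of 80 bins of Igk, 33 of 46 of Tra/Trd, 23 of 69 of Igh and 2 of 17 of Trb.

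The deposited matrices had been corrected so that every kept bin has the same total, and bins with too few reads had been dropped. The read pairs behind the corrected values were recovered, 65611035 in the WT matrix and 46635652 in that labelled Firre KO. The latter is called the KO-labelled matrix here because its label could not be borne out. Of these, 16.1% and 35.6% joined different chromosomes, and for the bins of the 4 loci that share ran from 15.0% to 19.5% in WT and from 35.0% to 46.3% in the KO-labelled matrix. A bin of Firre (listed as 6720401G13Rik) at chrX:47920001-47960000 kept 1144 read pairs there against 1550 in WT, or 1437 against 1709 per 1000000 read pairs of chromosome X. By the deletion coordinates of the study's methods, this bin lies wholly inside the deleted stretch. The targeted gene was therefore not lost from the KO-labelled matrix at this bin, and every direction between the matrices below rests on that label.

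The bins of Igh and Igk were thinly covered, and more so in the KO-labelled matrix, with the lowest coverage at Igk. The authors' filter dropped 9 of the 212 member bins in WT, against 4.17% of autosomal bins, and 35 in the KO-labelled matrix, against 4.61%. All 9 bins dropped in WT were in Tra/Trd, and the 35 were 19 in Igk, 11 in Tra/Trd and 5 in Igh, with none in Trb. Of 302 autosomal bins dropped in the KO-labelled matrix but not in WT, 26 lay in the loci. Among kept bins, 82 of 203 in WT had under 0.5 times the median read pairs of their chromosome, against 16.5% of autosomal bins, and 113 of 177 in the KO-labelled matrix, against 14.4%. At Igk these were 42 of 80 and 55 of 61 bins, at Igh 31 of 69 and 42 of 64, at Trb 4 of 17 and 6 of 17, and at Tra/Trd 5 of 37 and 10 of 35, the WT share there being below that of the autosomes. The median Igk bin had 0.437 times the chromosome median in WT and 0.270 times in the KO-labelled matrix. In Igh the median bin stood at 0.533 and 0.419, in Tra/Trd at 0.754 and 0.641, and in Trb at 0.682 and 0.609.

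Coverage was not even along a locus. The bin with Ighm, the constant gene of IgM, and the J segments (chr12:114640001-114680000) had 2.67 times the chromosome median in WT and 2.17 times in the other matrix, the highest of Igh, and it also held 22 HindIII sites where the median Igh bin held 11. In Tra/Trd the high values lay at the C end, up to 2.73 and 2.58 times the median, next to Dad1, a broadly expressed gene of protein glycosylation. Over bins kept in both matrices, the share of all autosomal reads that fell on Igk was 0.567 times as large in the KO-labelled matrix as in WT (95% counting interval 0.558 to 0.576). None of 715 other autosomal windows with as many bins had a lower ratio. The ratio was 0.853 for Igh (lower in 1.67% of 839 windows), 0.803 for Tra/Trd (0.398% of 1255) and 0.918 for Trb (12.3% of 3421). Of 177 member bins kept in both matrices, 90 had a ratio under 0.75, against 2.94% of autosomal bins. These were 44 of 61 in Igk, 27 of 64 in Igh, 16 of 35 in Tra/Trd and 3 of 17 in Trb. The 12 bins on either side of each locus had ratios between 0.823 and 1.04.

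The loci also differ in how much of their sequence is repeated within the locus, measured as the share of 50-base words of a bin that occur again in the same locus on either strand. In Tra/Trd, where a block of V segments has been copied during mouse evolution, the 9 bins dropped from both matrices had 96.3% to 98.2% repeated words, against a median of 18.6% in the 35 bins kept in both. The bins dropped only in the KO-labelled matrix had a median of 28.4% in Igk (19 bins) and 28.1% in Igh (5 bins), against 15.5% and 15.6% in the bins kept in both. The commonest distances between shared words of Tra/Trd were 320 kb and 680 kb, and in Igk the commonest distance was 160 kb. Trb had a median of 3.27%.

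**Figure D1:**
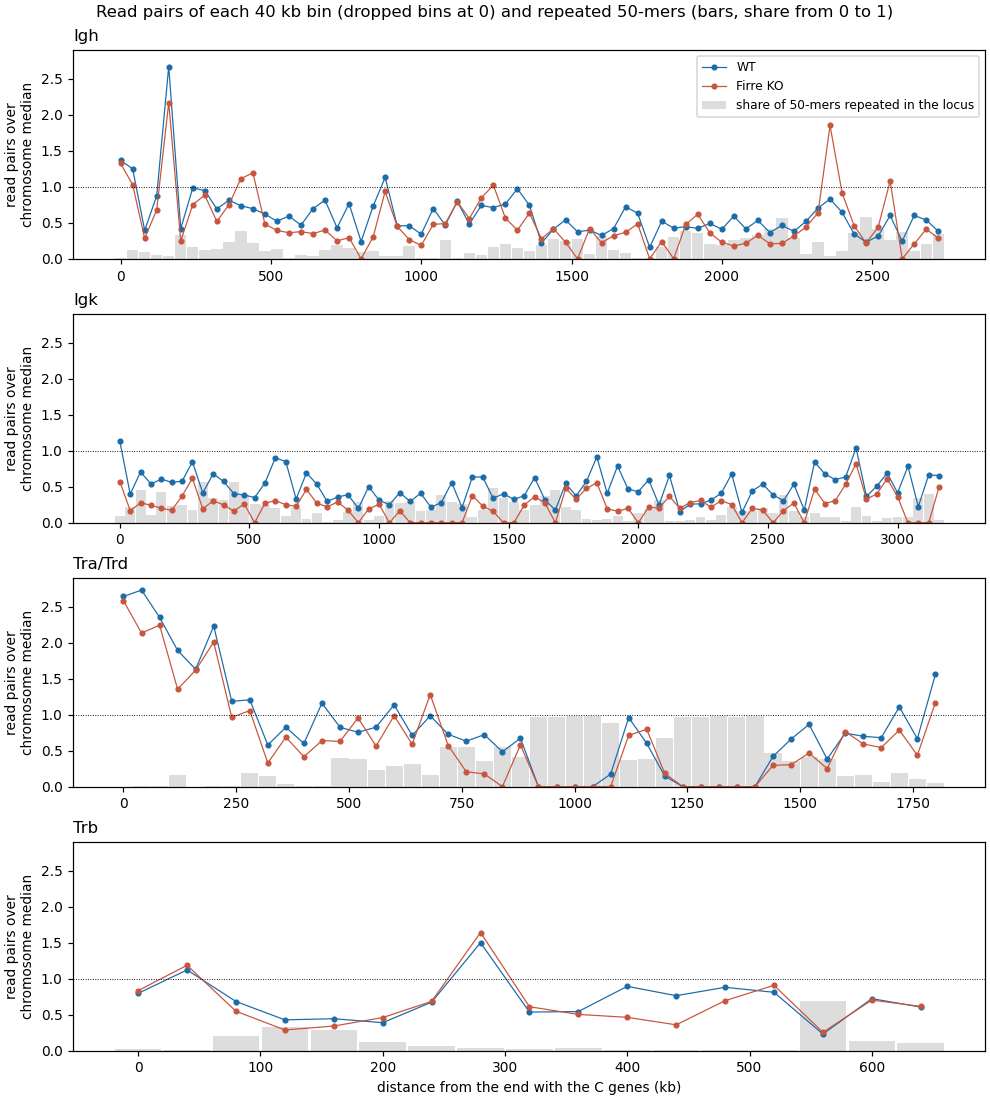
Read pairs of each 40 kb bin of the 4 loci over the median of its chromosome (vertical axis; lines with points for WT and for the KO-labelled matrix, with dropped bins drawn at 0) against the distance in kb from the end with the C genes, and as grey bars the share of 50-base words repeated within the locus. In Tra/Trd the 9 bins at 0 in both matrices are those with bars between 0.96 and 0.98, and in Igk the line of the KO-labelled matrix stays mostly below that of WT.

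Contact levels are given as observed over expected (O/E), the corrected contact divided by the mean contact of the same chromosome and matrix at the same distance, so that 1 is the chromosome's average. Each is followed by its 95% counting interval, which covers counting error only, since each group has 1 pooled matrix. The interval takes read pairs as independent molecules, which cannot be checked without molecular identifiers, so it may be too narrow. At 80 to 640 kb, Igh was as compact as the average of chromosome 12, with an O/E of 1.01 in WT (0.979 to 1.04) and 1.03 in the KO-labelled matrix (0.970 to 1.10). Igk stood at 1.04 (1.01 to 1.08) and 1.12 (1.03 to 1.22), and Tra/Trd at 0.972 (0.930 to 1.02) and 0.841 (0.779 to 0.920). Trb was the densest of the 4 in the corrected matrices, at 1.23 (1.16 to 1.31) and 1.39 (1.28 to 1.52). Among autosomal windows of the same number of bins, 60.5% and 60.4% lay below Igh in WT and in the other matrix. For Igk these shares were 78.7% and 90.6%, for Tra/Trd 36.5% and 10.8%, and for Trb 91.7% and 93.6%. Trb stood high in both matrices, and Igh lay near the middle in both.

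These levels rest on the correction, which scales thinly covered bins up to the same total. With the recovered read pairs left uncorrected, O/E in WT was 0.440 for Igh, 0.333 for Igk, 0.789 for Tra/Trd and 0.686 for Trb. Tra/Trd thus stood above Trb in WT, while Trb stayed the highest in the KO-labelled matrix, at 0.629 against 0.519 for Tra/Trd. With bins of at least 0.5 times the median read pairs in both matrices, which leaves 20 bins of Igh, 6 of Igk, 25 of Tra/Trd and 11 of Trb, the Igk value in the KO-labelled matrix turned from above to below the average, to 0.479 (0.234 to 0.897). In the same bins Igh stood above the average, at 1.21 (1.15 to 1.27) in WT and 1.10 (1.02 to 1.19) in the KO-labelled matrix. With totals made equal within the chromosome, Igk in WT stood at 1.01 (0.972 to 1.04). In the KO-labelled matrix Tra/Trd then stood at 0.969 (0.896 to 1.06) and Igh at 1.15 (1.08 to 1.22). The other compaction values stayed within their counting intervals under this last setting. With the better covered bins, Igk in WT moved to 1.26 (1.01 to 1.56) and Trb in WT to 1.32 (1.22 to 1.43). With bins kept in both matrices, Igk in WT stood at 1.08 (1.04 to 1.12).

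The decay of contact with distance differed among the loci. With all kept bins, Igh in WT kept to the average up to 960 kb, with O/E of 1.03 (80 to 200 kb), 0.995 (240 to 480 kb) and 1.02 (520 to 960 kb). It rose to 1.33 (1.23 to 1.44) at 1000 to 1960 kb. The better covered bins alone gave 1.15 (1.08 to 1.22) at 80 to 200 kb and 1.34 (1.23 to 1.46) at 240 to 480 kb, both above the average. At 520 to 960 kb they gave 1.06 (0.881 to 1.26). Igk rose in WT from 0.964 to 1.04, 1.18 and 1.22 over the same classes. Tra/Trd fell in WT from 1.14 (1.09 to 1.21) to 0.917, 0.797 and 0.593 (0.514 to 0.689) at 1000 to 1800 kb, the reverse order. Trb in WT was at the average at 80 to 200 kb, with 0.991 (0.924 to 1.07), and at 1.5 (1.37 to 1.65) at 240 to 480 kb. At 520 to 640 kb it stood at 1.05 (0.776 to 1.46), from 10 bin pairs. The same Trb classes gave 1.16 (1.04 to 1.29), 1.54 (1.36 to 1.78) and 1.78 (1.26 to 2.53) in the KO-labelled matrix. In the KO-labelled matrix the last Igh class stood at 0.992 (0.863 to 1.16) and the last Igk class at 1.53 (1.29 to 1.85). Tra/Trd did not keep its falling order there. Its classes stood at 0.764 (0.704 to 0.834), 0.902 (0.805 to 1.04), 2.05 (1.79 to 2.38) and 0.751 (0.621 to 0.938). The contact inside Igh and Igk at over 1000 kb was thus at or above the chromosome average in both matrices, and that inside Tra/Trd was below it in both.

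The Tra/Trd profile of the KO-labelled matrix had a peak that WT lacked, with an O/E of 2.05 (1.79 to 2.38) at 520 to 960 kb against 0.797 (0.714 to 0.907) in WT. A large share of it lay in few bin pairs. The 8 highest of 149 pairs carried 41.6% of the summed O/E, and the highest, between chr14:53320001-53360000 and chr14:54040001-54080000, had an O/E of 25.7 from 12 read pairs against 1.32 from 6 read pairs in WT. Pairs 680 or 720 kb apart that shared at least 10% of their 50-base words had a mean O/E of 15.9 (7 pairs) against 1.20 in WT (9 pairs), and pairs at those distances that shared less had 1.37 (16 pairs) and 0.672 (22 pairs). Pairs 760 to 960 kb apart, all of which shared under 10%, also stood higher in the KO-labelled matrix, with a mean of 1.82 (69 pairs) against 0.761 in WT (84 pairs). Pairs 520 to 640 kb apart, all sharing under 10% as well, did not, with means of 0.832 (57 pairs) and 0.829 (71 pairs). With the better covered bins alone, the class stood at 1.09 (0.940 to 1.28) against 0.766 in WT (0.679 to 0.867). Of the 8 highest pairs, 6 joined bins sharing between 12.6% and 27.9% of their words, while the other 2 shared 0.513% and 0.22%. Whether reads of repeated sequence were placed on the wrong copy was not tested.

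**Figure D2:**
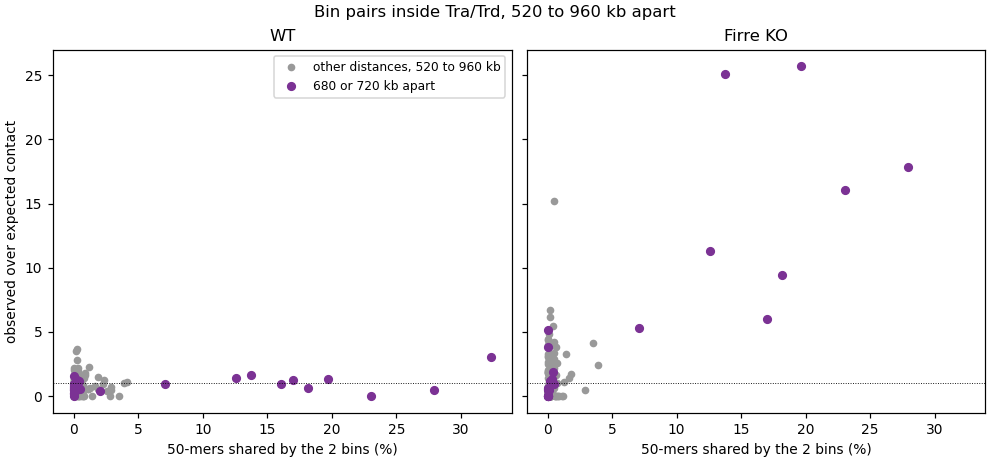
O/E contact (vertical axis) of bin pairs inside Tra/Trd that lie 520 to 960 kb apart, against the percentage of 50-base words that both bins share, with WT in the left panel and the KO-labelled matrix in the right panel (each point is a bin pair, purple where the bins are 680 or 720 kb apart). In the right panel the 7 purple points at 10% or more have a mean of 15.9, and in the left panel the 9 such points have a mean of 1.20.

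The contact between V segments and the D, J and C segments of the same locus is the one that recombination would need. In WT it was 2.36 times the chromosome average in Igk (1.97 to 2.89; 480 read pairs) and 2.39 times in Trb (2.01 to 2.85; 164 read pairs). In Igh it was 1.57 times the average (1.42 to 1.76; 2328 read pairs), and it was 0.761 times in Tra/Trd (0.692 to 0.849; 1582 read pairs). For comparison, in autosomal windows of the same layout 99.7% of values were lower than in Igk, 99.6% lower than in Trb, 95.7% lower than in Igh and 27.1% lower than in Tra/Trd. The KO-labelled matrix had 2.51 for Igk (1.63 to 3.90, from 54 read pairs) and 2.45 for Trb (1.90 to 3.14), with 98.0% and 98.6% of windows lower. It had 1.12 for Igh (0.962 to 1.38) and 0.398 for Tra/Trd (0.323 to 0.510), with 66.8% and 8.55% of windows lower. Igk and Trb thus stood at the upper end of the windows in both matrices. The windows were not matched for coverage. A lower median coverage than that of Igk was found in 3.36% of its windows in WT and in 0% in the KO-labelled matrix. For Trb these shares were 26.2% and 19.5%. On the log2 scale the KO-labelled matrix minus WT was -0.48 in Igh (-0.74 to -0.23) and -0.93 in Tra/Trd (-1.25 to -0.62), with 21.3% and 6.63% of windows having a lower difference. It was 0.09 in Igk (-0.53 to 0.71) and 0.03 in Trb (-0.39 to 0.45). Without the correction the Igk value of the KO-labelled matrix was 0.579 and that of Tra/Trd in WT 1.11, so both changed sides of the average, and the better covered bins gave 0.512 for the former (0.0407 to 3.87). Igh without the correction stood at 1.06 in WT (0.991 to 1.13) and at 0.662 in the KO-labelled matrix (0.594 to 0.738).

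Contacts among V bins alone were closer to the average. They were 1.09 in Igh (1.04 to 1.15), 1.11 in Igk (1.05 to 1.18), 0.851 in Tra/Trd (0.797 to 0.915) and 0.896 in Trb (0.807 to 0.998) in WT. The corresponding KO-labelled values were 1.02 (0.944 to 1.12), 1.39 (1.24 to 1.6), 1.59 (1.44 to 1.76) and 1.13 (0.970 to 1.31), and the Tra/Trd value was 1.21 with the better covered bins. Those bins gave 1.80 (1.15 to 2.85) for Igk and 1.26 (1.08 to 1.48) for Igh in WT. For Trb in the KO-labelled matrix they gave 1.36 (1.12 to 1.64). With totals made equal within the chromosome, the KO-labelled values among V moved to 1.16 (1.07 to 1.27) in Igh, above the average, and to 1.84 (1.67 to 2.03) in Tra/Trd. In WT, contact of V with D, J and C exceeded that among V by 0.53 on the log2 scale in Igh (0.38 to 0.68), 1.09 in Igk (0.82 to 1.35) and 1.42 in Trb (1.14 to 1.70). The same excess in the KO-labelled matrix was 0.14 in Igh (-0.11 to 0.38), 0.85 in Igk (0.26 to 1.44) and 1.12 in Trb (0.71 to 1.52). With the better covered bins the Igk order of the KO-labelled matrix turned, with wide intervals. They gave 0.512 with D, J and C (0.0407 to 3.87) and 1.23 among V (0.555 to 2.78). In Tra/Trd the D, J and C bins met the V bins less than the V bins met each other, with log2 differences of -0.16 in WT (lower limit -0.33, upper limit just under 0) and -1.99 in the other matrix (-2.31 to -1.68), where the values among V hold the pairs with shared words. The WT order turned with the better covered bins, which gave 0.864 with D, J and C and 0.833 among V.

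The V arrays were also divided into a near, a middle and a far part by position from the D, J and C bins. In Igh in WT, O/E with D, J and C was 1.23 (1.14 to 1.34) for the near, 1.40 (1.22 to 1.64) for the middle and 2.08 (1.70 to 2.59) for the far part, which lies 1600 to 2720 kb away. The same parts gave in the KO-labelled matrix 0.870 (0.768 to 1.05), 0.848 (0.678 to 1.18) and 1.63 (1.22 to 2.38). The far part stood above the other parts in both matrices. In Igk in WT the parts gave 2.05 (1.78 to 2.39), 2.41 (1.82 to 3.22) and 2.62 (1.70 to 4.03), with intervals that overlap. In the KO-labelled matrix they gave 1.65 (1.07 to 2.52), 4.32 (2.15 to 7.98) and 2.12 (0.678 to 5.36), without a steady rise. The last 2 rested on 13 and 5 read pairs. In Tra/Trd in WT they gave 0.983 (0.920 to 1.05), 0.675 (0.499 to 0.951) and 0.482 (0.345 to 0.671), and in the KO-labelled matrix 0.414, 0.283 and 0.445, the middle value resting on 13 read pairs. In Trb the 3 V bins 400 to 480 kb away had the highest values, 3.07 in WT (2.39 to 3.89; 70 read pairs) and 3.08 in the other matrix (1.99 to 4.6; 26 read pairs). The near and far parts gave 2.26 (1.71 to 2.95) and 1.57 (0.919 to 2.61) in WT. In the KO-labelled matrix they gave 1.85 (1.26 to 2.71) and 2.40 (1.41 to 3.96). These intervals overlap those of the middle part in both matrices.

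**Figure D3:**
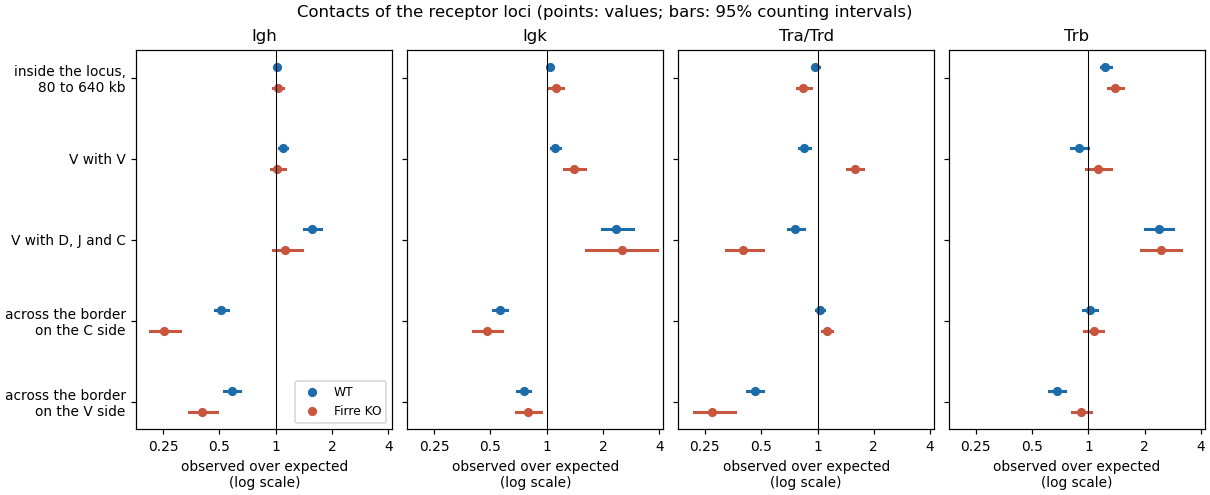
O/E contact (horizontal axis, log scale; 1 is the chromosome average) inside each locus at 80 to 640 kb, among V bins, between V bins and the D, J and C bins, and across the borders on the C side and on the V side, with points for the values and bars for the 95% counting intervals of WT and of the KO-labelled matrix. V with D, J and C lies at 2.36 and 2.39 for Igk and Trb in WT and at 0.761 for Tra/Trd, and contact across the C-side border is 0.511 and 0.253 for Igh.

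Both ends of Igh and one end each of Igk and Tra/Trd were marked by low contact between inside and outside in the corrected matrices. Contact across a border was the mean O/E between up to 480 kb inside and 480 kb outside, at 80 to 640 kb, and was set beside 58214 autosomal positions, whose medians were 0.986 in WT and 0.993 in the KO-labelled matrix. At the C end of Igh, toward Tmem121, it was 0.511 in WT (0.472 to 0.555; 1.52% of positions lower) and 0.253 in the KO-labelled matrix (0.212 to 0.307; 0.498% lower). At its V end, toward the zinc finger gene Zfp386, it was 0.581 (0.528 to 0.644; 3.73%) and 0.406 (0.346 to 0.487; 3.63%). At the C end of Igk, toward Rpia, an enzyme gene of the pentose phosphate pathway, it was 0.563 (0.519 to 0.611; 2.97%) and 0.483 (0.406 to 0.581; 6.92%). Its V end had 0.754 (17.3%) and 0.795 (30.8%). Tra/Trd was the other way round, with 0.461 (0.420 to 0.511; 0.718%) and 0.274 (0.219 to 0.364; 0.732%) at the V end toward Olfr1510. It had 1.03 (0.982 to 1.08) and 1.12 (1.05 to 1.20) at the C end toward Dad1. Trb was at the average at its C end toward the receptor kinase gene Ephb6, with 1.02 (0.939 to 1.12) and 1.07 (0.951 to 1.20). It had 0.678 (0.616 to 0.75; 9.98%) and 0.917 (0.817 to 1.04; 42.6%) at the V end toward Moxd2.

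On the log2 scale, the KO-labelled matrix minus WT in border contact was -1.02 at the C end of Igh (-1.28 to -0.75; 1.33% of positions had a lower difference). It was -0.52 at its V end (-0.78 to -0.26; 9.62%) and -0.75 at the V end of Tra/Trd (-1.08 to -0.42; 3.79%). At the V end of Trb it was 0.44 (0.23 to 0.65; 94.3% of positions had a lower difference). At the other 4 borders the log2 difference lay between -0.22 and 0.12. Without the correction the C end of Trb fell below the average, to 0.672 (0.629 to 0.718) and 0.681 (0.626 to 0.742), and that of Tra/Trd stood at 1.57 and 1.66. The V ends then fell to 0.494 and 0.408 in Igk and to 0.410 and 0.517 in Trb, so that Igk was low at both ends, its C end having 0.456 and 0.207. Moving the border outward by 1 bin gave 0.361 and 0.101 at the C end of Igh in WT and in the KO-labelled matrix.

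Called boundaries were few inside the loci and no more frequent than elsewhere. A boundary is a local minimum of the insulation score, the contact across a sliding square of 480 kb, with a strength above 0. In WT, 6 of 199 scored member bins were boundaries against 3.72% of autosomal bins, and in the KO-labelled matrix 5 of 159 against 3.46%. Igh had 3 and 2, Igk 2 and 1, Tra/Trd 1 and 2, and Trb none in either. These counts depended on the settings. With a square of 240 kb, Igk in the KO-labelled matrix had 3 and Trb in WT 1, and with a plain mean the former had 0. Of autosomal boundaries, 44.2% of those of WT and 47.8% of those of the KO-labelled matrix had a partner within 1 bin in the other matrix. Inside the loci, 2 of the 6 and 2 of the 5 did. These were the V end of Igh (chr12:117200001-117240000 in WT, near Ighv1-84, strength 1.21, and chr12:117160001-117200000 in the other matrix, near Gm16747, strength 2.29) and a bin of Tra/Trd near Trdv1 (chr14:54480001-54520000, strengths 0.290 and 3.70). The Trdv1 boundary separates the distal V array from the part with the delta D and J segments and all alpha J segments, and its strength was above 4.82% of autosomal boundaries in WT and above 88.1% in the KO-labelled matrix.

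The other inner boundaries had no partner within 1 bin. In WT they were 2 weak ones in Igh near Gm17000 and Gm9740 (strengths 0.310 and 0.373), 1 weak one in Igk near Igkv1-117 (0.274) and 1 in Igk near Gm11143 (1.89, above 84.1% of autosomal boundaries), 1100 kb from the C end. Those of the KO-labelled matrix were near Gm16966 in Igh (1.74), near Igkv1-132 in Igk (0.384) and at Olfr1509 at the V end of Tra/Trd (1.89). The Igk boundary of WT near Gm11143 could have no partner, since its bin and those next to it had no insulation score in the KO-labelled matrix, where 49 of the 80 Igk bins had one. Outside the C end of Igh, a boundary at Mta1 in WT (chr12:114320001-114360000, strength 1.91) and at Crip2 in the other matrix (chr12:114360001-114400000, strength 5.92) counted as shared, and these were stronger than 84.8% and 98.5% of the autosomal boundaries of their matrix. Outside the C end of Igk, boundaries lay at Eif2ak3 in WT (1.94) and beside Rpia in the other matrix (2.32), 140 kb and 20 kb from the border. WT also had boundaries outside the V ends of Igk at Il23r (0.837) and of Tra/Trd at Sall2 (1.18). Outside the V end of Trb, boundaries lay in Mgam in WT (1.41) and in the KO-labelled matrix (1.08), not within 1 bin of each other. Beyond its C end a weak one near Olfr459 was shared (0.475 and 0.382). The autosomal median strength was 1.78 in the KO-labelled matrix against 1.11 in WT.

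**Figure D4:**
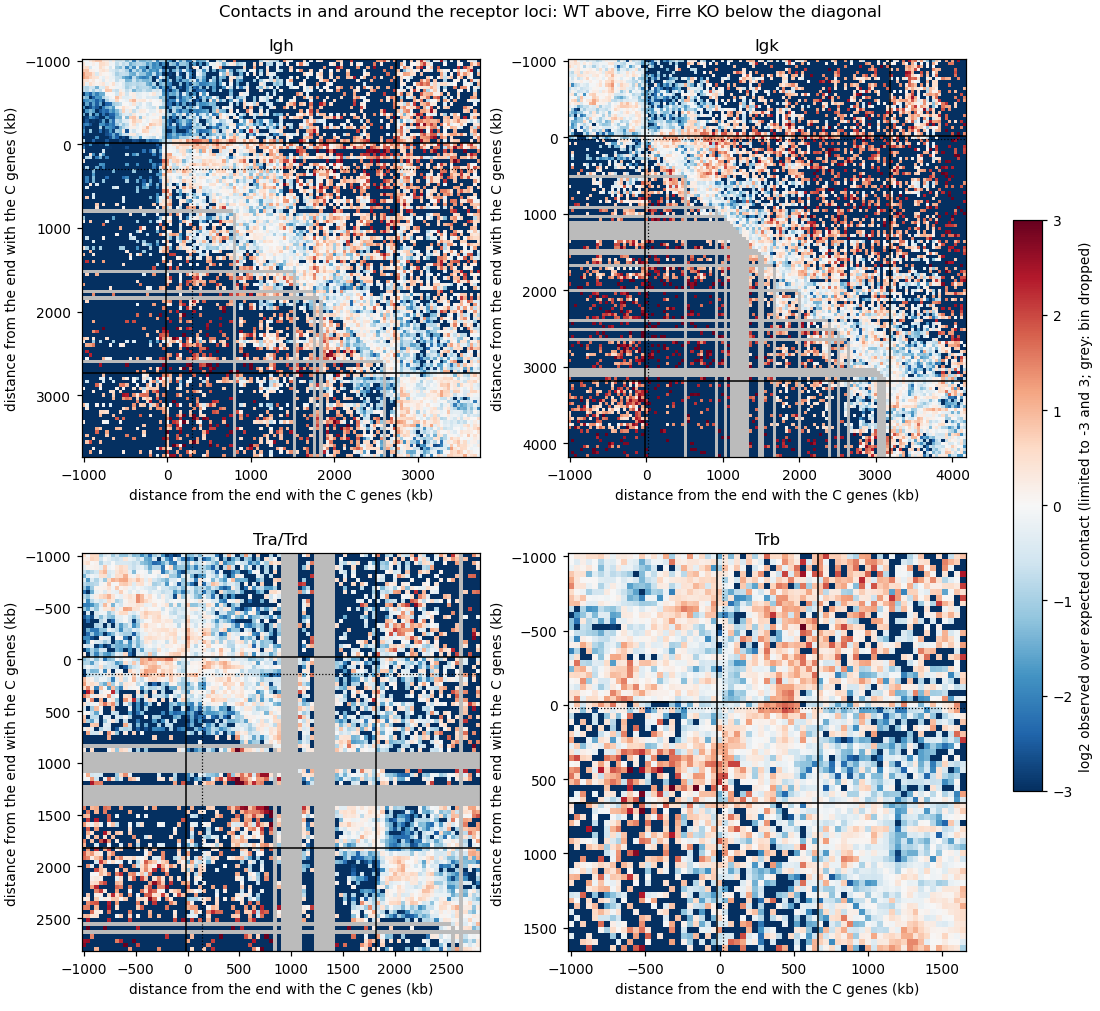
Log2 of O/E contact in and around each locus (colour, limited to -3 and 3, with pairs that have no read pair drawn at -3 and dropped bins in grey), with WT above and the KO-labelled matrix below the diagonal, both axes in kb from the end with the C genes. Solid lines are the locus ends and the dotted line is the limit of the D, J and C bins. The blue blocks across the C-side line of Igh correspond to the border values 0.511 and 0.253, and the red stripe of Igk along the dotted line to 2.36 in WT. The red band inside Tra/Trd below the diagonal holds pairs with shared 50-base words. It also holds pairs that share under 10% of them, whose mean was 1.82 at 760 to 960 kb.

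The 12-base core of the CTCF motif, searched on both strands as an exact match to a fixed consensus, was unevenly spread over the loci. A site that departs from this consensus was not counted, so few matches do not mean that a locus has few CTCF sites. It was found 56 times in Igh, in 38 of 69 bins, and 25 times in Tra/Trd, in 20 of 46 bins. Trb held it 5 times, in 4 of 17 bins, and Igk 3 times, in 3 of 80 bins, while 17.1% of autosomal bins held it. In Igh all 56 matches were on the minus strand and in Tra/Trd all 25 and in Trb all 5 were on the plus strand, so that in these 3 loci the matches among the V segments read toward the end with the C genes. The exception in reading is 1 match of Tra/Trd in the last bin, at chr14:54858908-54858931 beyond Trac, which reads away from it. In the 8 bins with the D, J and C segments of Igh there was none. To show how alike the copies are, the 4 of 8 matches nearest the V end of Igh are printed, with the 3 on the plus strand outside the C end for their opposite orientation, each with 6 flanking bases, read 5′ to 3′ on the strand named and with the core in capitals.
V end of Igh, chr12:117153842-117153865, minus: taatgaCCAGCAGATGGCacaatg
V end of Igh, chr12:117193899-117193922, minus: taatgaCCAGCAGATGGCacaatg
V end of Igh, chr12:117235358-117235381, minus: tcatgtCCAGCAGATGGCacaatg
beyond the V end of Igh, chr12:117249261-117249284, minus: tcagaaCCAGCAGGGGGCacaatg
outside the C end of Igh, chr12:114382819-114382842, plus: ctctggCCACTAGAGGGCagattc
outside the C end of Igh, chr12:114458258-114458281, plus: atctagCCACCAGGGGGCacatga
outside the C end of Igh, chr12:114459613-114459636, plus: atctgtCCACCAGGGGGCacctga

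The matches at the V end are near copies of each other, as the V segments are, and are not independent sites. The 9 bins centred on the V end held 8 matches, all on the minus strand, and those centred on the C end held 4, 3 of them on the plus strand and so facing into the locus. The corresponding counts were 6 at the C end of Igk, all of them outside the locus, 5 and 2 at the V and C ends of Tra/Trd, and 1 at each end of Trb, where 9-bin windows of the autosomes had a median of 1 and a 95th percentile of 6. CTCF binding was not measured here, and a match is a description of sequence. In base composition the loci differed little from the autosomes, with median GC contents of 39.3% in Igh, 38.6% in Igk, 41.1% in Tra/Trd and 39.6% in Trb against 41.4%.

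All 4 loci contacted the B compartment, the gene-poor and mostly silent part of the chromosomes, more than the A compartment in both corrected matrices. The compartment preference of a bin was the log2 of its mean O/E with A windows over that with B windows of its chromosome, over partners more than 2 Mb away, so that values under 0 lean to B. Without the correction, Tra/Trd in WT leaned to A, at 0.45 (0.41 to 0.50), and Trb in WT stood at -0.079 (-0.16 to 0.0014). In WT, 186 of 203 member bins were under 0 against 56.0% of autosomal bins. These were 79 of 80 in Igk, 67 of 69 in Igh, 16 of 17 in Trb and 24 of 37 in Tra/Trd. In the KO-labelled matrix, 175 of 177 were under 0 against 56.1%, and the 2 exceptions were the Trac bin and the Trbd1 to Trbv31 bin. The preference of the whole locus in WT was -0.84 for Igh (-0.90 to -0.78), -1.0 for Igk (-1.05 to -0.95), -0.36 for Tra/Trd (-0.42 to -0.31) and -0.81 for Trb (-0.90 to -0.71). Among windows of equal size, 14.5%, 6.85%, 42.2% and 24.5% were lower. The KO-labelled matrix had -1.18 (-1.27 to -1.08), -1.26 (-1.36 to -1.17), -1.33 (-1.43 to -1.23) and -1.03 (-1.19 to -0.87), with 3.22%, 1.54%, 2.31% and 18.3% of windows lower.

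The ends with the constant genes set Tra/Trd and Trb apart from the immunoglobulin loci. In Tra/Trd the D, J and C bins stood at 0.51 in WT (0.39 to 0.62) and the V bins at -0.46 (-0.53 to -0.39), a gap of 0.97 (0.84 to 1.10). In the KO-labelled matrix they stood at -0.07 (-0.25 to 0.10) and -1.46 (-1.59 to -1.34), a gap of 1.39 (1.18 to 1.6). The 480 kb beyond Trac stood higher still, at 1.25 in WT (1.15 to 1.36) and 0.35 in the KO-labelled matrix (0.22 to 0.48). The V bin of Trdv4 beside the D segments stood at 0.53 and -0.24. The level of the D, J and C bins of Tra/Trd is thus part of a rise toward that flank. In Trb the bin with Trbd1, Trbc1, Trbd2 and Trbc2 stood at 0.33 in WT (-0.01 to 0.68) and 0.20 in the other matrix (-0.26 to 0.66), above its V bins by 1.01 (0.65 to 1.38) and 1.27 (0.77 to 1.78). It was the highest bin of Trb in both matrices, although the 480 kb beyond it toward Ephb6 stood at -0.91 and -1.12. In Igh the D, J and C bins did not differ from the V bins beyond the counting intervals, with gaps of 0.05 (-0.11 to 0.20) and 0.01 (-0.23 to 0.25). In Igk the bin with Igkc did not differ from V in WT, with a gap of -0.0048 (-0.28 to 0.27), and stood 0.59 higher in the other matrix (0.12 to 1.05), there on 245 read pairs.

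Single bins varied around these levels. In Tra/Trd the highest bin was that of Trac, which also holds Dad1, with 0.88 in WT and 0.36 in the KO-labelled matrix, followed by that of Trdd1 to Trdj2 with 0.56 and -0.04. The lowest bins in WT were at the other end of the locus, at Trav2 (-1.42) and Trav3-1 (-1.40), and in the KO-labelled matrix at Trav16d-dv11 (-2.73, in a bin with 226 read pairs in all). In Igh the highest bins of WT were at Ighv11-2 (0.29) and Gm16966 (0.10), and the lowest at Gm16814 to Gm16711 (-1.51). The highest Igh bin of the KO-labelled matrix stood at -0.31, and the lowest was at Gm16792 (-2.29). In Igk the highest and the lowest bins of WT were at Igkv12-89 (0.03) and Igkv5-45 (-2.08), and those of the KO-labelled matrix at Igkv16-104 to Igkv15-103 (-0.09) and at chr6:68080001-68120000 (-2.85), the last a bin with 210 read pairs in all.

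**Figure D5:**
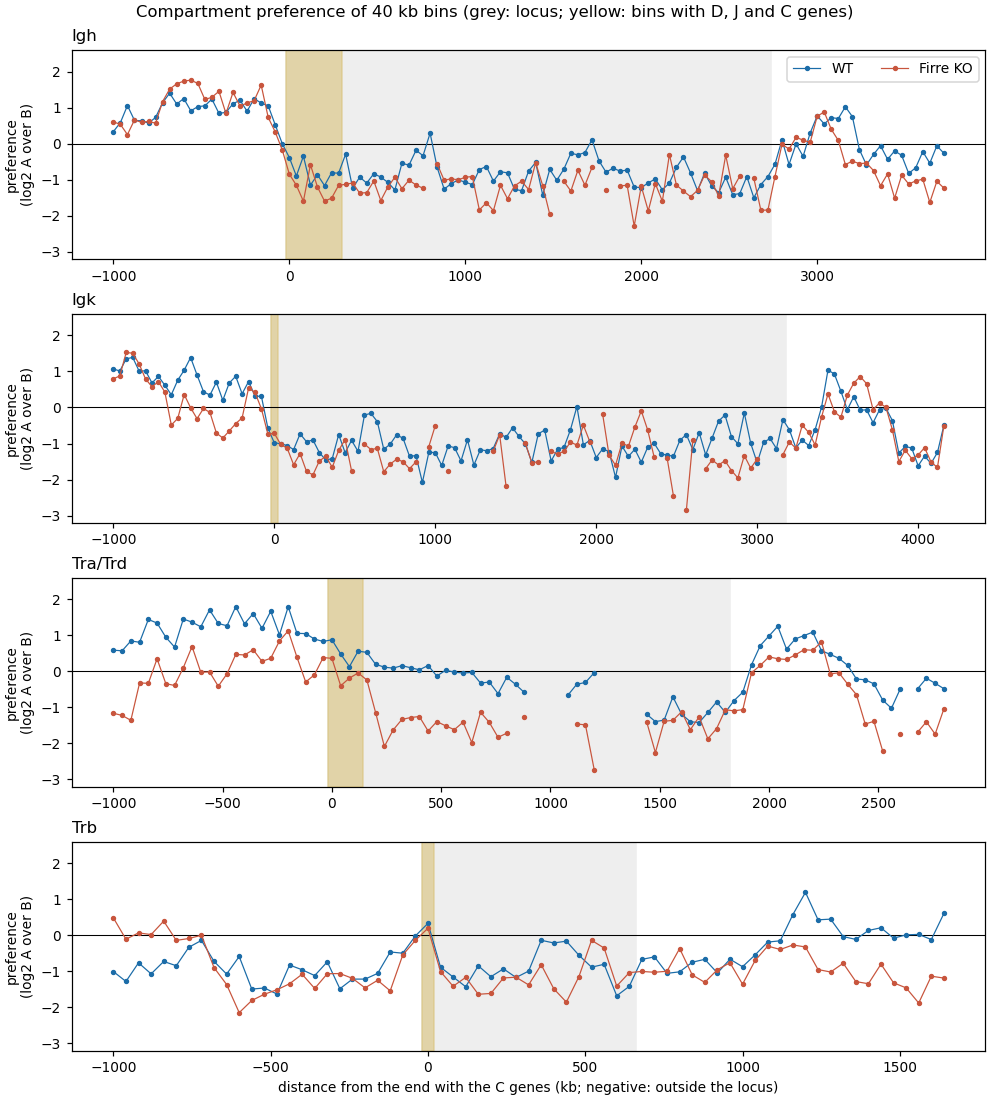
Compartment preference (vertical axis, log2 of contact with A over contact with B) of 40 kb bins along each locus and 1000 kb on either side, against the distance in kb from the end with the C genes, for WT and the KO-labelled matrix (grey, the locus; yellow, bins with D, J and C segments; gaps, dropped bins). The whole loci stand at -0.84, -1.0, -0.36 and -0.81 in WT from top to bottom, the yellow bin of Trb is the highest of its locus, the yellow bins of Tra/Trd average above its V bins (0.51 against -0.46 in WT), and the Tra/Trd values of the KO-labelled matrix lie lower, at -1.33 over the locus.

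Of the 177 member bins kept in both matrices, 131 had a lower preference in the KO-labelled matrix than in WT, against 51.5% of autosomal bins. These were 32 of 35 in Tra/Trd, 44 of 61 in Igk, 44 of 64 in Igh and 11 of 17 in Trb. Over the whole locus, the KO-labelled matrix minus WT was -0.97 in Tra/Trd (-1.08 to -0.85; 5.02% of windows had a lower difference), -0.34 in Igh (-0.45 to -0.23; 26.6%), -0.26 in Igk (-0.37 to -0.16; 30.8%) and -0.22 in Trb (-0.41 to -0.04; 38.4%). The difference at Tra/Trd was not particular to the locus, since the 480 kb beyond Trac moved by -0.91 (-1.07 to -0.74) and those beyond Trav1 by -0.37 (-0.52 to -0.21). Beyond Igkc the shift was -0.70 (-0.82 to -0.58), larger than that of Igk itself. On chromosome 14 the first eigenvectors of the contact map, which set A and B, correlated between the matrices with r = 0.72 over 2865 bins, against 0.81 over 3613 bins of chromosome 6 and 0.67 over 2842 bins of chromosome 12. In the KO-labelled matrix the first and the second eigenvector of chromosome 14 correlated with gene density almost equally, with r of 0.27 and 0.26, against 0.42 and 0.14 in WT. The share of read pairs between chromosomes, more than 2 times higher in the KO-labelled matrix, moved with these values and its part in them was not tested.

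Clusters of odorant receptor genes, another large tandem gene family, served as a comparison, with 18 clusters and 592 bins. All 18 leaned to B in both matrices, with median preferences of -1.15 in WT and -1.44 in the KO-labelled matrix. In WT, 15 of 18 clusters stood lower than Igh, 12 lower than Igk, 16 lower than Tra/Trd and 16 lower than Trb. In the other matrix these numbers were 16, 14, 12 and 18, and 17 of 18 clusters were lower there than in WT, by a median of -0.30. The lean of the receptor loci to B was within the range of these clusters, except that in the KO-labelled matrix Trb leaned less than any of the 18, and the difference between the matrices at Igh, Igk and Trb, -0.34 to -0.22, lay close to their median. That at Tra/Trd, -0.97, lay within their range of -1.35 to 0.10, but toward its lower end and well below their median of -0.30. In compactness the clusters had medians of 1.19 and 1.09, with 3 of 18 below Igh, 3 below Igk, 2 below Tra/Trd and 10 below Trb in WT. These numbers were 6, 9, 0 and 16 in the KO-labelled matrix, where the lowest cluster, at 0.890, lay within the interval of Tra/Trd.

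Contacts between the loci were too few to compare. Pairs of loci on different chromosomes shared 3 to 18 read pairs in a matrix, and 9 of their 10 intervals included the average of their chromosomes. The exception was Igh with Tra/Trd in the KO-labelled matrix, with 2.21 (1.18 to 6.96) from 18 read pairs, against 0.487 (0.124 to 9.92) from 5 in WT. Igk and Trb, on the same chromosome, met at 1.22 times the average for their distance in WT (0.984 to 1.66) and at 1.88 times in the KO-labelled matrix (1.24 to 3.10), the latter from 41 read pairs.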

How the data were processed

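Per the labels and the study's methods, in situ Hi-C libraries cut with HindIII were mapped to mm9 and binned at 40 kb with HiC-Pro 2.7.8, with the 2 libraries of a group pooled. The deposited signal of a bin pair had been balanced by the authors with iterative correction. Each signal is a whole number of read pairs times 1 weight for each of its bins, and 100% of entries came out whole within 0.05. A balanced signal scales thinly covered bins up to the common total, which damps a gain of a whole locus.

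Genes came from the GENCODE annotation of mm9, which lists T cell receptor segments under immunoglobulin biotypes. Sequence lengths of 22 chromosomes were checked against the bin table. Intervals are weighted Poisson intervals of 95% (gamma method) and cover counting error only. Comparison windows were autosomal windows of the same number of bins, at least 75% of them kept, outside the loci, and are a description. They were not matched for coverage. A and B came from the first eigenvector of 200 kb windows, and insulation used a delta span of 320 kb and smoothing of 160 kb. Odorant receptor clusters had neighbours at most 200 kb apart and a span of at least 480 kb. Genes were named by position (locus ends, segments, neighbours, boundaries) and bins by the 3 lowest and 3 highest preferences of a locus. The members, lists and measures were chosen with earlier results of these data known. The scripts, in Python 3.11.15 with numpy 2.4.6, pandas 2.3.3 and scipy 1.17.1, were tested on simulated data. Alternatives covered the correction, the expected value, thinly covered bins, the border position, the square, and the windows and distance behind the compartments.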

Additional observations from a re-analysis of the deposited data

How the results depend on the processing

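Alternatives using bins kept in both matrices, totals made equal within the chromosome, and better covered bins for preferences and contacts among V were chosen after seeing the data. Taking the expected value from all autosomes moved none of the 8 compaction values beyond its counting interval, and taking A and B from 400 kb windows none of the 8 preferences. No paired analysis was possible because each group has 1 pooled matrix.

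Leaving the read pairs uncorrected moved 33 values and turned another 7, so that no value tested this way stayed the same. Compaction then fell in WT to 0.440 (Igh), 0.333 (Igk), 0.789 (Tra/Trd) and 0.686 (Trb), and in the KO-labelled matrix to 0.313, 0.143, 0.519 and 0.629, so that Igk and Trb changed sides of the average in both. V with D, J and C was 1.06, 1.59, 1.11 and 1.46 in WT, and 0.662, 0.579, 0.516 and 1.40 in the KO-labelled matrix. Tra/Trd in WT and Igk in the KO-labelled matrix thereby changed sides. Igh in the KO-labelled matrix fell below the average from 1.12 (0.962 to 1.38), whose interval had included it. Low and high borders in WT were 0.574 and 0.391 (Igh), 0.494 and 0.456 (Igk), 0.397 and 1.57 (Tra/Trd), and 0.410 and 0.672 (Trb). In the KO-labelled matrix they were 0.195 and 0.306, 0.408 and 0.207, 0.134 and 1.66, and 0.517 and 0.681. Preferences in WT were -0.34, -0.30, 0.45 and -0.079, the Tra/Trd value having changed sign, and -0.79, -0.77, -0.50 and -0.44 in the KO-labelled matrix. The cause was not tested.

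With bins of at least 0.5 times the median read pairs, compaction in WT was 1.21 (Igh), 1.26 (Igk) and 1.32 (Trb), and V with D, J and C of Tra/Trd was 0.864. In the KO-labelled matrix, Igk turned to 0.479 for compaction and 0.512 for V with D, J and C, on few pairs, since 6 Igk bins were left. Preferences in WT were -0.93 (Igh), -0.77 (Igk) and -0.25 (Tra/Trd), and that of Tra/Trd in the KO-labelled matrix was -1.20. With bins kept in both matrices, compaction of Igk in WT was 1.08. With equal totals within the chromosome it was 1.01, and in the KO-labelled matrix compaction was 1.15 for Igh and 0.969 for Tra/Trd, and the high border of Tra/Trd 1.24. Contact among V bins of the KO-labelled matrix was then 1.16 in Igh and 1.84 in Tra/Trd. With borders 1 bin outward, the low border of Igh was 0.361 in WT and 0.101 in the KO-labelled matrix, and in WT the low border of Tra/Trd was 0.401 and the high border of Igk 0.505. With partners over 10 Mb away, Tra/Trd in WT had -0.28. Boundary counts in the KO-labelled matrix became 3 (Igk) and 1 (Tra/Trd) and in WT 1 (Trb) with a square of 240 kb. They became 1 (Igh) and 0 (Tra/Trd) in WT with a square of 960 kb, and 0 (Igk) and 1 (Tra/Trd) in the KO-labelled matrix with a plain mean.

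Depth limits the Igk values of the KO-labelled matrix (54 read pairs behind V with J and C), single-bin preferences there, and contacts between loci.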
